A study of Danio rerio with 15 samples.

Results

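Potassium channel genes, here every gene whose symbol begins with *kcn*, were followed along the caudal fin of zebrafish from base to tip. The symbol picked out 81 of the 23926 genes in the deposited tables, and the rule itself uses no measured value. By their symbols the 81 genes fell into 8 classes: 14 two-pore leak channels (*kcnk*), 19 inward rectifiers (*kcnj*), 11 genes of the ether-a-go-go family (*kcnh*), 5 *kcnq* genes, 12 delayed rectifier and A-type Kv pore genes (*kcna* to *kcnd*), 6 Kv modifier genes (*kcnf*, *kcng*, *kcnv*), 6 calcium- or sodium-activated channels (*kcnma*, *kcnn*, *kcnt*) and 8 accessory genes (*kcnab*, *kcne*, *kcnip*). The fins came from fish of the AB wild-type strain, whose age the labels do not give, and were cut into a proximal, a middle and a distal region. Each of the 5 libraries per region was made from a pool of 4 fish, 2 male and 2 female, so that differences between single fish were averaged within a library. The title of the series places the study in the field of positional memory, the retained knowledge of fin cells of where along the axis they lie.

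Potassium channels let potassium leave or enter the cell and so set its resting voltage. Leak channels and inward rectifiers act near rest, whereas voltage-gated and calcium- or sodium-activated channels open on depolarization or on a rise of the ion that gates them. In zebrafish several of these genes are tied to fin size: a gain-of-function allele of *kcnk5b* causes the overgrown fins of *another longfin*, misexpression of *kcnh2a* causes those of *longfin*, and mutations of *kcnj13* change the stripe pattern. These mutants make the level of each channel along a normal fin of interest.

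For each gene, 1 mean per position was deposited. The normalized count of every library behind those means was recovered from their digits, and levels are given as mean ± SD over 5 libraries. For channel genes with a mean of at least 10 the SD was, in the median, 23.2% of the mean proximally, 16.6% in the middle and 22.4% distally. Libraries are numbered 1 to 5 within a position by rising size factor, not by the labels' replicate numbers. The libraries held 9914166 to 13436711 reads in genes with a single solution, and 3 reads in 1 library equal 2.57 to 3.62 normalized counts, a limit that covers counting error only. Keratin, collagen and osteoblast genes were read at all positions, as fin tissue holds them, while the actinotrichia gene *and2* had no read proximally. A gene was called where the authors' deposited table listed it with an adjusted p (DESeq, Benjamini-Hochberg over all its genes) under 0.05, and "rose" and "fell" are used of called genes only. All p-values measure the spread between pools of fish. Since the files give no transcript lengths, a level is compared between positions and not between genes.

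Most potassium channel genes that differed between the ends of the fin fell towards the tip, and most of that fall lay between the middle and the distal region. Between distal and proximal fin, 34 of the 79 channel genes in the table were called, against 36.0% of all genes in it; 9 rose and 25 fell, against 17.9% and 18.1% of all genes. The median log2 fold change of the channels in the authors' deposited table was −0.64, beside −0.04 for all genes. Genes with few reads carried part of this: among the 36 channels that averaged at least 10 normalized counts over the ends, 23 were called, 8 higher and 15 lower, against 42.6% of such genes, 22.0% higher and 20.6% lower, and their median there was −0.39 beside −0.01. The 5 libraries of the 2 ends did not overlap for 28 of the 79 channel genes, 5 of them higher and 23 lower distally, against 30.7% of all genes in either direction, 15.6% higher and 15.1% lower. In these bulk samples, fewer cells of a type and less RNA per cell cannot be told apart.

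Between middle and proximal fin only 5 of 81 channel genes were called, 2 higher and 3 lower, against 7.31% of all genes, 3.51% higher and 3.8% lower. Between distal and middle fin 26 of 74 were called, 8 higher and 18 lower, against 26.2% of all genes, 13.3% higher and 12.9% lower. The middle and distal comparisons share libraries with the comparison of the ends, so these counts are not independent of each other. A limma fit of the recovered counts, which 40 channel genes with enough reads entered, called 26, 5 and 26 of them between the ends, at the first and at the second step, against 51.5%, 13.8% and 38.7% of the genes in it. Of the 34 genes called between the ends, 30 had the larger of their 2 steps between middle and distal fin, or 88.2%, beside 77.6% of all called genes. Their median step, whichever way it went, was 0.38 on the log2 scale from proximal to middle and 1.32 from middle to distal. For all genes called between the ends these medians were 0.25 and 0.53. Levels were not matched in comparing these steps. A mean of at least 10 normalized counts over the ends was reached by 23 of the 34 channels. Of all 8415 genes called, 7742 reached it. The 3 means lay in order for 30 of the 34, or 88.2%, close to the 84.9% of all genes called between the ends. Of these 30 channels 8 were in rising and 22 in falling order, and among all genes with 3 means 15.4% and 15.5% were called and in such order. Only *kcnk1a* and *kcnj3b*, which rose, and *kcnh1a* and *kcnq5a*, which fell, were in order and called at both steps, as were 3.84% of all genes.

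**Figure D1:**
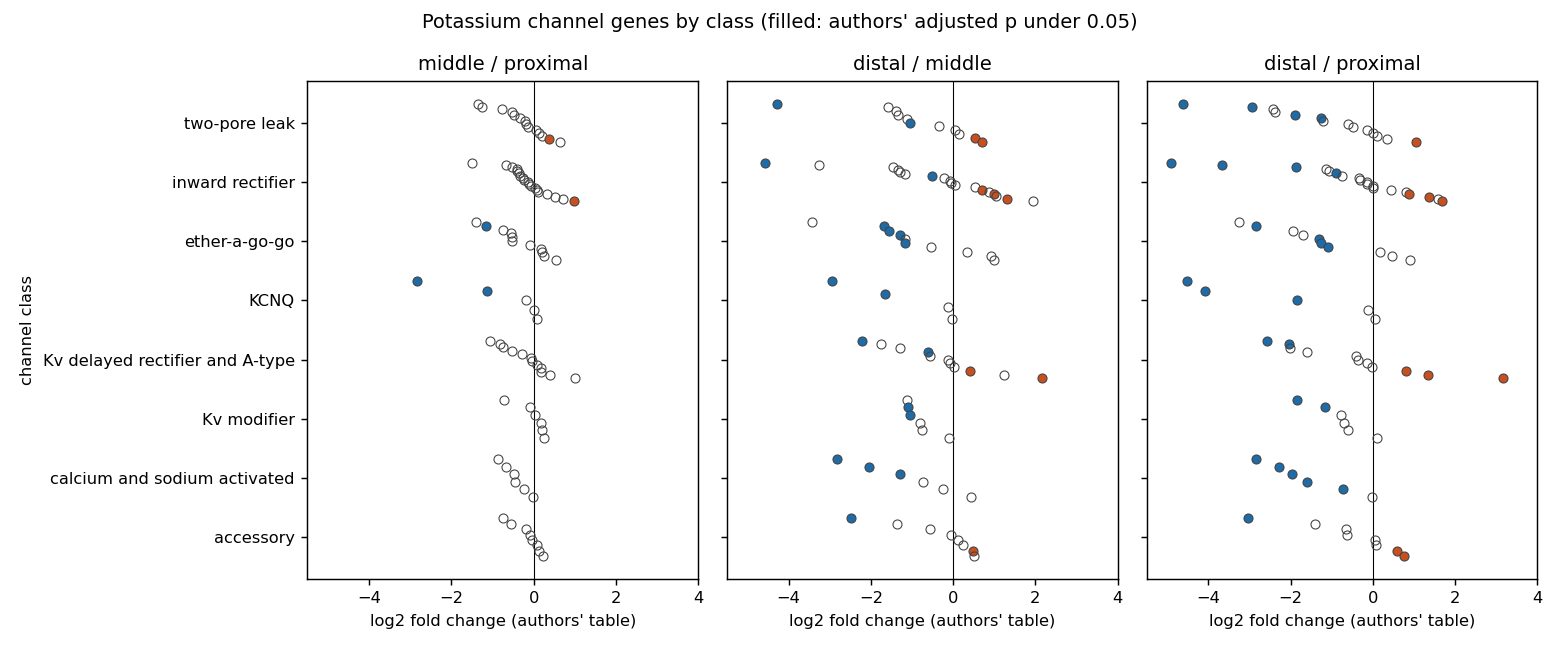
Log2 fold change of each potassium channel gene from the authors' deposited tables (x axis), by channel class (y axis), for middle over proximal, distal over middle and distal over proximal fin. Filled points passed an adjusted p of 0.05, orange for higher and blue for lower; the ether-a-go-go, KCNQ, Kv modifier and calcium- or sodium-activated classes have no orange point in the distal over proximal panel.

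The calls fell on the classes as follows, beside 17.9% higher and 18.1% lower among all genes between the ends. The same shares apply to every class and list count between the ends below. In 4 classes, the ether-a-go-go, KCNQ, Kv modifier and calcium- or sodium-activated genes, none of 27 measured genes rose between proximal and distal fin and 14 fell. In the other 4 classes 9 of 52 rose and 11 fell. The first 4 classes are grouped by that outcome, so the count is a description, and no difference between classes was tested. It also depends on the symbols in the tables: *KCNG2*, a modifier gene only by its name in the reference list, rose 2.6-fold (adjusted p = 8.94e-07 in the authors' deposited table). Of the 81 genes, 41 reached a mean of at least 10 normalized counts at 1 position or more. The other 38 with values at all 3 positions stayed below that, and among them none rose and 8 fell between the ends, with proximal means of 3.06 to 9.01 and distal means of 0.189 to 2.96. The share called among all genes this low at every position was not counted, so nothing about low channels is drawn from that count. By the mean over the ends, 43 channels lay below 10, and 11 of these were called, 10 of them lower. Of all 23404 genes in that table, 18162 averaged at least 10 over the ends. So did 3747 of the 4234 that fell and 3995 of the 4181 that rose.

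The fin size and skin pattern genes come first. *kcnk5b* (ENSDARG00000012390), the pH-sensitive two-pore leak channel of *another longfin*, stood at 185, 367, 327, 364 and 371 normalized counts in the proximal libraries, 321, 261, 297, 335 and 215 in the middle ones and 395, 449.9, 513, 419 and 285 in the distal ones. Its means were 323 ± 79.1 proximally, 286 ± 48.4 in the middle and 412 ± 83.6 distally, and the libraries of every pair of positions overlapped. It was 1.44-fold higher distally than in the middle (adjusted p = 0.0194 in the authors' deposited table), while the 1.28-fold difference between the ends missed the threshold (adjusted p = 0.197 there). Both results changed side of the threshold in the limma fit when 1 library was left out, the first of them for any of 6 libraries. In the limma fit of the recovered counts the distal and middle difference had an adjusted p of 0.0336, but without middle library 2 or 5 it was 0.0628 or 0.0969, and without distal library 1, 2, 3 or 4 it was 0.0514, 0.0739, 0.0893 or 0.0600. The difference between the ends passed without distal library 5, the lowest distal one, with a log2 fold change of 0.50 and an adjusted p of 0.0254 by limma.

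Its paralog *kcnk5a* (ENSDARG00000023587) was not called, with 88.9, 95.2, 91.9, 101 and 78.0 normalized counts in the proximal libraries, 114, 87.4, 88.5, 77.9 and 109 in the middle ones and 105, 99.9, 93.3, 91.7 and 101 in the distal ones. The 3 sets of libraries overlapped throughout, and its difference between the ends was 0.11 ± 0.12 on the log2 scale (SE, limma), with adjusted p = 0.690 in the authors' deposited table. *kcnj13* (ENSDARG00000043443), the inward rectifier of the stripe mutants, stood at 155, 136, 182, 136 and 217 normalized counts in the proximal libraries, 173, 183, 174, 196 and 148 in the middle ones and 222, 156, 158, 157 and 142 in the distal ones. Its highest and lowest libraries lay at the ends and not in the middle, and its difference between the ends was 0.01 ± 0.14 (SE, limma), with adjusted p = 1 in the authors' deposited table. Genes that mark melanophores, cells in which *kcnj13* acts in the stripe pattern, gave a different picture: 9 of 10 rose between the ends and none fell, and their summed level was 1462 to 2017 proximally and 4567 to 6294 distally, with no marker at 0; their part in the *kcnj13* values was not tested. The tables hold no gene under the symbols *kcnh2a*, *kcnh2b* or *kcnj10a*, so these were not analysed here. A gene named *KCNJ10* only in the reference list is given among the other observations. Whether it is *kcnj10a* was not settled.

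**Figure D2:**
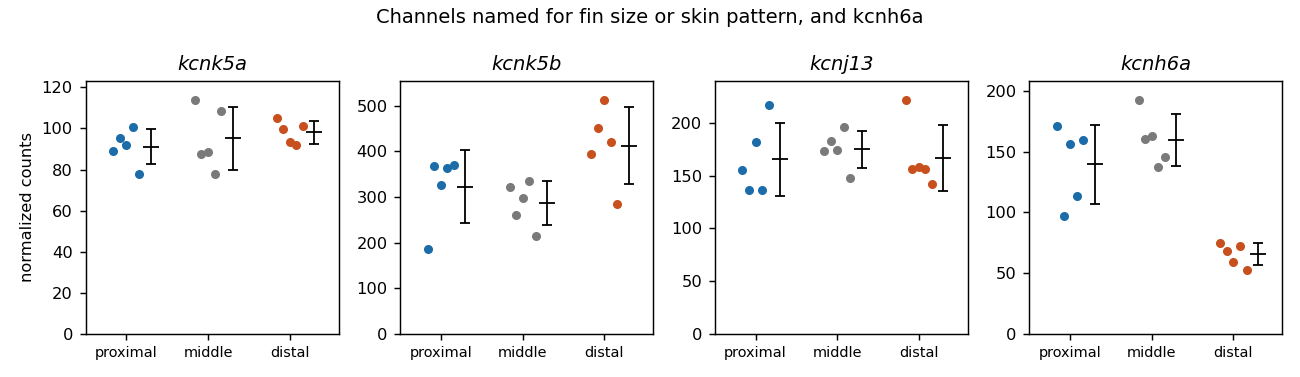
Normalized counts (y axis, from 0) of *kcnk5a*, *kcnk5b*, *kcnj13* and *kcnh6a* in the proximal, middle and distal fin; each point is 1 of 5 libraries and the bar gives mean ± SD. The positions overlap for the first 3 genes, whereas the distal libraries of *kcnh6a*, at 52.9 to 74.8, all lie below its proximal ones, at 97.1 to 171.

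Among the two-pore leak channels, which carry background current at rest, 1 of 14 rose and 4 fell between the ends. The riser was *kcnk1a* (ENSDARG00000045067), of the weakly inward-rectifying TWIK type, and it had the most reads of all 81 genes, a number that also grows with transcript length. It stood at 887, 788, 871, 843 and 1084 normalized counts in the proximal libraries, 1199, 1255, 1117, 1044 and 1134 in the middle ones and 2132, 1775, 1550.3, 1926 and 1945 in the distal ones. Every distal library lay above every middle and proximal one, and 1 proximal library lay above 1 middle library. Its level rose 1.29-fold from proximal to middle and 1.62-fold from middle to distal (adjusted p = 0.0178 and 2.46e-09, from the authors' deposited table), 2.09-fold in all. The paralog *kcnk1b* went the other way, with 95.6 ± 19.7 proximally, 82.1 ± 8.59 in the middle and 39.9 ± 5.04 distally, a 2.398-fold fall without overlap of the ends (adjusted p = 5.47e-09 there).

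The steepest fall of the class was that of *kcnk10a* (ENSDARG00000062849), a TREK-type channel opened by stretch and lipids. Its libraries stood at 21.5, 24.3, 18.4, 22.9 and 19.5 normalized counts in the proximal libraries, 24.4, 13.6, 18.3, 16.3 and 11.98 in the middle ones and 1.21, 1.12, 0, 1.07 and 0.945 in the distal ones. The distal libraries held 4 reads of it in all, against 111 in the proximal ones, and no distal library reached 2 normalized counts. The means fell 24.5-fold between the ends and 19.5-fold between middle and distal fin (adjusted p = 3.62e-13 and 2.99e-10, from the authors' deposited table). By limma the log2 changes were smaller, −4.05 ± 0.38 and −3.68 ± 0.39 (SE). A further TREK-type gene, *kcnk2b*, fell from 10.29 ± 4.94 to 2.76 ± 1.41 (adjusted p = 0.00551 in the authors' deposited table), whereas its paralog *kcnk2a*, named after its values were seen, was not called, at 9.78, 11.2 and 8.91 from base to tip. *kcnk13a* fell as well, from 7.85 to 1.03. Not called were *kcnk6*, at 256, 232 and 256, and 5 genes whose means stayed below 4: *kcnk3a*, *kcnk3b*, *kcnk9*, *kcnk10b* and *kcnk15*.

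The inward rectifiers, which pass potassium more easily into the cell than out of it, held 3 genes that rose and 4 that fell among 19. *kcnj3b* (ENSDARG00000062217), a subunit of channels opened by G proteins, rose at both steps. It stood at 189, 182, 132, 114 and 135 normalized counts in the proximal libraries, 236, 252, 277, 373 and 348 in the middle ones and 419, 426, 579.7, 513 and 489 in the distal ones. No library of one position overlapped those of another. From 150.2 ± 33.0 proximally it rose 1.98-fold to 297 ± 60.3 and then 1.63-fold to 485 ± 66.3 (adjusted p = 4.88e-05 and 3.45e-05, from the authors' deposited table). *kcnj5*, whose mammalian counterpart pairs with that of *kcnj3* in the heart, fell from 7.92 to 2.18.

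*kcnj2a* (ENSDARG00000019418), a strong inward rectifier that holds cells near the potassium equilibrium voltage, fell towards the tip. Its libraries stood at 206, 160.3, 174, 174 and 175 normalized counts in the proximal libraries, 140.3, 147, 145, 107 and 134 in the middle ones and 107, 86.4, 80.1, 74.7 and 126 in the distal ones. The proximal libraries lay above all others, and the middle and distal ones overlapped. The fall was 1.88-fold between the ends (adjusted p = 9.85e-08 in the authors' deposited table). The first step, 1.32-fold, missed the threshold there (adjusted p = 0.0681) and passed it by limma (adjusted p = 0.0322).

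*kcnj1a.1* and *kcnj1a.2* belong to a run of 6 neighbouring *kcnj1a* genes that ends at *kcnj5* in the order of the RefSeq annotation. Their mammalian counterpart secretes potassium in the kidney tubule. *kcnj1a.1* (ENSDARG00000091232) stood at 156 ± 44.5 proximally, 144 ± 49.8 in the middle and 287 ± 104 distally, 1.84-fold higher distally than proximally with overlapping libraries (adjusted p = 0.0276 in the authors' deposited table). By limma its adjusted p was 0.0203, and 0.0615, 0.0539 or 0.0572 without proximal library 2, distal library 1 or distal library 5. *kcnj1a.2* rose from 9.92 ± 5.19 to 25.4 ± 4.10 without overlap of the ends (adjusted p = 5.52e-04 in the authors' deposited table). The other 4 genes of the run, with means below 8, were not called. How reads that match several near-identical copies were counted is not given in the sources used here, so the split among the copies is uncertain. Summed over the 6 genes the level was 179.9 ± 49.6 proximally and 329 ± 109.8 distally, of which *kcnj1a.1* made up 86.8% and 87.1%. In fish skin *kcnj1* genes are known from ionocytes. Of 10 ionocyte markers measured at both ends, 1 rose and 7 fell; the riser, the carbonic anhydrase gene *ca2*, made up 76.9% of the summed level proximally and 93.7% distally. That sum, taken over 11 listed markers, was 3614 to 4572 proximally and 10343 to 14829 distally with no marker at 0. The part of ionocytes in the *kcnj1a* values was not tested.

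The remaining inward rectifiers had few reads or were not called. *kcnj8*, the pore of a channel closed by ATP, stood at 32.6, 31.3 and 32.5 and was not called. *kcnj14* fell from 5.77 to 0.189 and *kcnj16* from 3.06 to 0.241, the distal values resting on 1 read each. The others, among them *kcnj9*, *kcnj11*, *kcnj12* and *kcnj1b*, had means below 10 at every position and were not called. By limma *kcnj12* passed the threshold between distal and middle fin.

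In the ether-a-go-go family of voltage-gated channels, none of 10 measured genes rose and 4 fell between the ends, and these 4 were the only genes of the family with a mean of at least 10 at any position. *kcnh1a* (ENSDARG00000024167), whose human counterpart carries dominant mutations in developmental syndromes, stood at 75.3, 103, 124, 93.3 and 90.1 normalized counts in the proximal libraries, 37.0, 45.6, 51.0, 48.1 and 34.2 in the middle ones and 12.1, 11.2, 9.88, 24.5 and 10.4 in the distal ones. The 3 positions did not overlap. It fell 2.25-fold to the middle and 3.17-fold from there to the tip (adjusted p = 3.83e-08 and 4.69e-08, from the authors' deposited table), 7.13-fold in all. *kcnh6a* (ENSDARG00000001803), which belongs with *kcnh2* and *kcnh7* to the ERG branch that repolarizes the heart, stood at 171, 97.1, 157, 113 and 159.7 normalized counts in the proximal libraries, 193, 160.2, 163, 138 and 146 in the middle ones and 74.8, 68.4, 59.3, 72.5 and 52.9 in the distal ones. Its middle and proximal libraries overlapped and all distal ones lay below them, 2.13-fold below the proximal mean and 2.44-fold below the middle mean (adjusted p = 3.33e-06 and 5.36e-14 there). The second ERG gene, *kcnh7*, fell from 43.7 ± 7.58 to 18.4 ± 3.70, and *kcnh5a*, of the same branch as *kcnh1a*, from 28.2 ± 5.54 to 11.5 ± 4.58. For both, the distal libraries lay below all others. The 7 low genes *kcnh1b*, *kcnh3*, *kcnh4a*, *kcnh4b*, *kcnh5b*, *kcnh6b* and *kcnh8*, with means below 7, were called in no comparison.

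Of the 5 *kcnq* genes, voltage-gated channels that open slowly and damp repeated firing or repolarize the heart, none rose and 3 fell. *kcnq5a* (ENSDARG00000069954) had the smallest adjusted p of all 81 genes. It stood at 135, 152, 138, 140.0 and 112 normalized counts in the proximal libraries, 62.4, 62.1, 63.5, 67.3 and 50.5 in the middle ones and 4.83, 5.61, 11.0, 11.7 and 6.62 in the distal ones. The positions were fully separated, the means falling 2.21-fold at the first step and 7.69-fold at the second (adjusted p = 8.62e-10 and 7.13e-23, from the authors' deposited table), 17.0-fold in all. Its paralog *kcnq5b*, with 591 ± 50.03 proximally, 626 ± 39.2 in the middle and 614 ± 52.7 distally, was not called and differed between the ends by 0.06 ± 0.08 on the log2 scale (SE, limma). *kcnq1*, the channel that carries the slow repolarizing current of the heart with a *kcne* partner, fell from 38.8 ± 17.4 to 10.8 ± 6.84 (adjusted p = 0.00178 in the authors' deposited table), with overlap of the ends through 1 proximal library of 13.6. *kcnq3* fell from 5.55 proximally to 0.775 in the middle, and *kcnq2a* was not called.

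**Figure D3:**
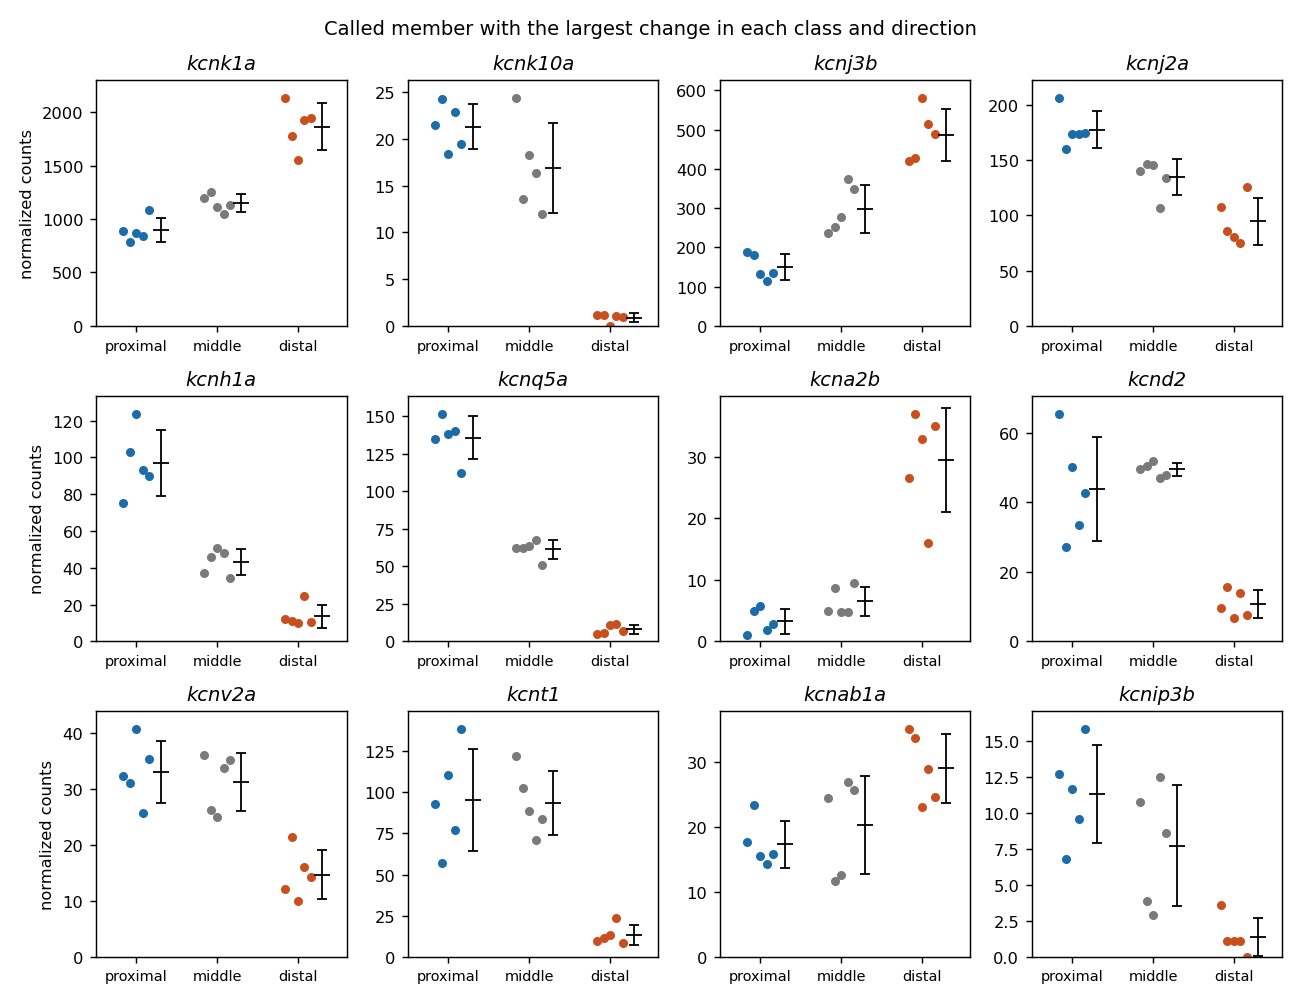
Normalized counts (y axis, from 0) in every library for the called gene with the largest change between the ends in each class and direction. Only genes with a mean of at least 10 normalized counts at 1 position or more are included. Each point is 1 of 5 libraries and the bar gives mean ± SD. *kcnk10a*, *kcnd2*, *kcnt1* and *kcnv2a* drop mainly between middle and distal fin, whereas *kcnq5a*, *kcnh1a* and *kcnj3b* change at both steps.

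The Kv pore genes, which make delayed rectifier and A-type currents, moved both ways: 3 rose and 2 fell among 11. *kcna2b* (ENSDARG00000102064), whose mammalian counterpart sits along myelinated axons, had the largest rise of all 81 genes. It stood at 0.977, 4.86, 5.80, 1.905 and 2.79 normalized counts in the proximal libraries, 4.87, 8.74, 4.81, 4.81 and 9.42 in the middle ones and 26.5, 37.0, 32.9, 16 and 35.0 in the distal ones. All distal libraries lay above the others, 9.03-fold above the proximal mean (adjusted p = 5.55e-13 in the authors' deposited table), and the proximal and middle libraries overlapped. The distal fin held 137 reads of it and the proximal fin 17. *kcnd1*, an A-type pore gene, rose from 85.5 ± 20.99 to 149 ± 14.7 without overlap of the ends (adjusted p = 6.83e-06 there). *kcnd2* (ENSDARG00000032799), of the same A-type group, fell. It stood at 65.5, 27.2, 50.3, 33.3 and 42.7 normalized counts in the proximal libraries, 49.7, 50.5, 52.0, 47.1 and 47.9 in the middle ones and 9.65, 15.7, 6.59, 13.9 and 7.56 in the distal ones. The middle libraries were close together, the proximal ones spread around them, and the distal ones lay below both, 4.10-fold under the proximal mean (adjusted p = 2.52e-06 in the authors' deposited table).

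Smaller Kv differences followed. *kcnc2*, a fast delayed rectifier gene, rose from 4.04 ± 1.30 to 10.18 ± 5.28 with overlapping libraries (adjusted p = 0.0341 in the authors' deposited table). *kcnc4* was called only between distal and middle fin, 1.52-fold lower (adjusted p = 0.0270 there). By limma that call had an adjusted p of 0.0287 and was lost without middle library 1 or 4 (0.0602 and 0.0534) or distal library 1, 4 or 5 (0.0596, 0.0693 and 0.104). The rise of *kcnd1* from middle to distal, 1.33-fold, was lost in the same way without middle library 1, 2 or 5 (0.0898, 0.0525 and 0.0509). It was also lost without distal library 2 or 4 (0.0773 and 0.0654). Scaling libraries to their reads in genes with a single solution lost it too (0.0602). *kcnb2*, at 42.0, 41.0 and 38.1, and *kcnc1b*, at 36.2, 29.8 and 28.2, were not called, and *kcna6a*, *kcnc1a*, *kcnc3a* and *kcnd3* had means below 5.

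Kv modifier subunits form no channel alone but change the gating of Kv pores. Of these 6, none rose and 2 fell between the ends. *kcnv2a* (ENSDARG00000076644), whose human counterpart is mutated in a retinal cone disease, stood at 32.3, 31.1, 40.6, 25.7 and 35.3 normalized counts in the proximal libraries, 36.0, 26.2, 25.0, 33.7 and 35.1 in the middle ones and 12.1, 21.3, 9.88, 16 and 14.2 in the distal ones. The proximal and middle libraries overlapped and the distal ones lay below all of them, 2.25-fold under the proximal mean (adjusted p = 5.82e-04 in the authors' deposited table). *kcng4a* fell 2.07-fold from middle to distal, from 16.4 ± 1.83 to 7.92 ± 2.67 (adjusted p = 0.0301 there). Between the ends *kcng4a* missed the threshold in the authors' deposited table (adjusted p = 0.143, DESeq) and passed it by limma. *kcnf1a* fell from 6.30 to 1.76, and *kcng3*, at 128 ± 19.4 proximally, 145 ± 14.1 in the middle and 137 ± 29.2 distally, was not called.

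Nerves run along the fin rays, so markers of axons and of the Schwann cells around them are given beside these voltage-gated classes. Of 13 neuron and axon markers measured at both ends, 3 rose, *sncga*, *syt1a* and *prph*, and 2 fell, *neflb* and *snap25a*. Summed over all listed markers with values, the level was 413 to 534 proximally, from 16 markers, and 621 to 774 distally, from 14. The 2 sums therefore cover different sets of markers, and *isl1* was at 0 distally. Of 13 Schwann cell markers 4 rose and 7 fell. The summed Schwann cell level, 6583 to 7587 proximally and 7486 to 9948 distally, was led at the tip by *pmp22b*, and no marker was at 0. The part of nerve tissue in the channel values was not tested.

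Among the channels opened by calcium or sodium inside the cell, none of 6 rose and 5 fell between the ends. *kcnt1* (ENSDARG00000079484), a sodium-activated channel, stood at 92.9, 57.3, 110.3, 77.1 and 138 normalized counts in the proximal libraries, 122, 103, 88.5, 71.2 and 83.9 in the middle ones and 9.65, 11.2, 13.2, 23.5 and 8.51 in the distal ones. Its proximal and middle libraries overlapped over a wide range, and all distal ones lay below them, 7.21-fold under the proximal mean (adjusted p = 2.03e-10 in the authors' deposited table). *kcnn3*, a small-conductance calcium-activated channel, fell 4.87-fold, from 64.3 ± 14.5 through 54.6 ± 11.1 to 13.2 ± 3.63 (adjusted p = 7.52e-15 there). *kcnma1a*, the large-conductance channel that relaxes smooth muscle, stood at 103 ± 40.7 proximally, 64.6 ± 8.33 in the middle and 26.5 ± 5.61 distally, 3.88-fold lower distally than proximally (adjusted p = 4.95e-05 there). For these 3 genes the distal libraries lay below all others. *kcnn4*, the intermediate-conductance channel of red and white blood cells, fell from 52.5 ± 10.8 to 31.9 ± 11.8 with overlapping libraries (adjusted p = 0.00955 in the authors' deposited table). *kcnn1b* fell from 9.01 to 2.96 and its paralog *kcnn1a*, at 18.9, 13.8 and 18.6, was not called.

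Markers of contractile cells and of blood cells are given beside that class. Of 10 pericyte and smooth muscle markers 3 rose and 4 fell. Their summed level, 10877 to 13444 proximally and 10424 to 11674 distally with no marker at 0, was made up mostly of *notch3*, which was not called. Of 13 leukocyte markers 1 rose and 9 fell, with sums of 3457 to 4759.9 proximally and 2974 to 3735 distally and none at 0. *csf1ra*, also a xanthophore marker here, made up 29.1% of the mean leukocyte sum proximally and 45.3% distally. The part of these cell types in the fall of *kcnma1a* and *kcnn4* was not tested.

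Accessory subunits moved both ways, 2 rising and 1 falling among 8. *kcnip3b* (ENSDARG00000017880), a calcium-binding partner of the *kcnd* channels, stood at 12.7, 6.80, 11.6, 9.52 and 15.8 normalized counts in the proximal libraries, 10.7, 3.88, 2.89, 12.5 and 8.56 in the middle ones and 3.62, 1.12, 1.098, 1.07 and 0 in the distal ones. All distal libraries lay below all proximal ones, 8.17-fold in the means (adjusted p = 2.29e-05 in the authors' deposited table), on 59 reads proximally and 6 distally. *kcnab1a* (ENSDARG00000008140), a cytoplasmic beta subunit of Kv channels, stood at 17.6, 23.3, 15.5, 14.3 and 15.8 normalized counts in the proximal libraries, 24.4, 11.6, 12.5, 26.9 and 25.7 in the middle ones and 35.0, 33.7, 23.1, 28.8 and 24.6 in the distal ones. Its ends overlapped and it was 1.68-fold higher distally (adjusted p = 0.0416 in the authors' deposited table). By limma its adjusted p of 0.0218 became 0.0522, 0.0507 or 0.0504 without proximal library 4, distal library 1 or distal library 2.

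*kcne4*, a single-span subunit that inhibits several Kv channels, rose from 99.7 ± 25.1 to 149 ± 32.4 with overlapping libraries (adjusted p = 0.0234 in the authors' deposited table). Its rise from middle to distal, 1.41-fold, was lost by limma without middle library 3 or 5 (adjusted p = 0.0609 and 0.0778) or distal library 2, 3 or 4 (0.0645, 0.0945 and 0.0629). *kcnip1b*, at 23.4, 22.0 and 14.97, was not called in the authors' deposited table and was lower distally by limma (adjusted p = 0.0230). *kcnab1b*, *kcnab2b*, *kcnip2* and *kcnip3a*, with means of up to 10.4, were not called.

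Among partner subunits of these channels that carry other names, 2 rose and 3 fell of 12 measured between the ends, with a median log2 fold change of −0.37. *abcc9*, the sulfonylurea receptor that pairs with *kcnj8*, rose from 294 ± 42.5 to 445 ± 35.9, while *kcnj8* itself was not called. *dpp6b*, a partner of the *kcnd* channels, fell from 87.7 ± 14.1 to 21.1 ± 8.60, as *kcnd2* and *kcnip3b* did and *kcnd1* did not. *lrrc38b*, which shifts the gating of the large-conductance calcium-activated channel, rose, and *cntnap2b*, which clusters Kv channels along axons, and *amigo1*, a partner of Kv channels, fell.

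**Figure D4:**
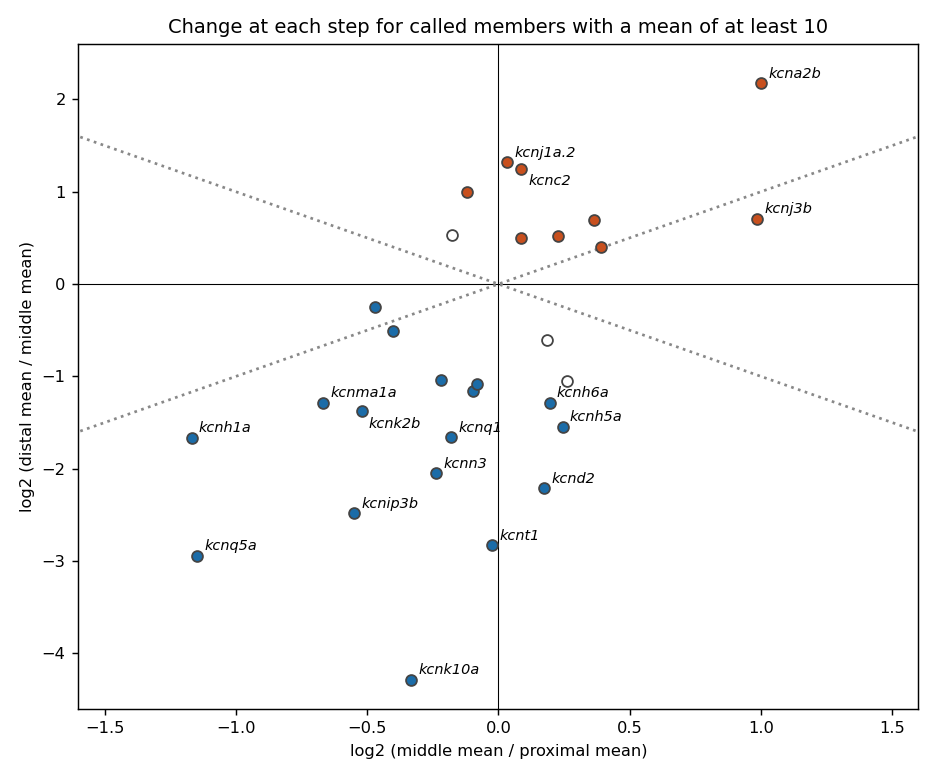
Log2 ratio of means from proximal to middle fin (x axis) against that from middle to distal fin (y axis) for the 29 potassium channel genes with a mean of at least 10 at 1 position or more that were called in any comparison. Orange genes rose and blue genes fell between the ends, white ones were called only between distal and middle; above and below the dotted lines, where the steps are equal in size, the second step is the larger.

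Related genes were compared by their calls and their folds. Of 14 pairs of *a* and *b* paralogs with both members in the table of the ends, 10 had exactly 1 called member, 3 had none, and the *kcnk1* pair had both, in opposite directions. The log2 fold changes of both members had the same sign in 9 of the 14, and the difference between the members was not tested. In some pairs the uncalled member had few reads and a fold at least as large: *kcnh1b*, with means up to 2.598, had a log2 fold change of −3.25 in the authors' deposited table, beside −2.83 for *kcnh1a*. For *kcnj2b*, with means up to 3.11, it was −1.14 in that table, beside −0.91 for *kcnj2a*. *kcnq5b* was different, having more reads than *kcnq5a* at every position and a log2 fold change of 0.06 in that table, beside −4.09.

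**Figure D5:**
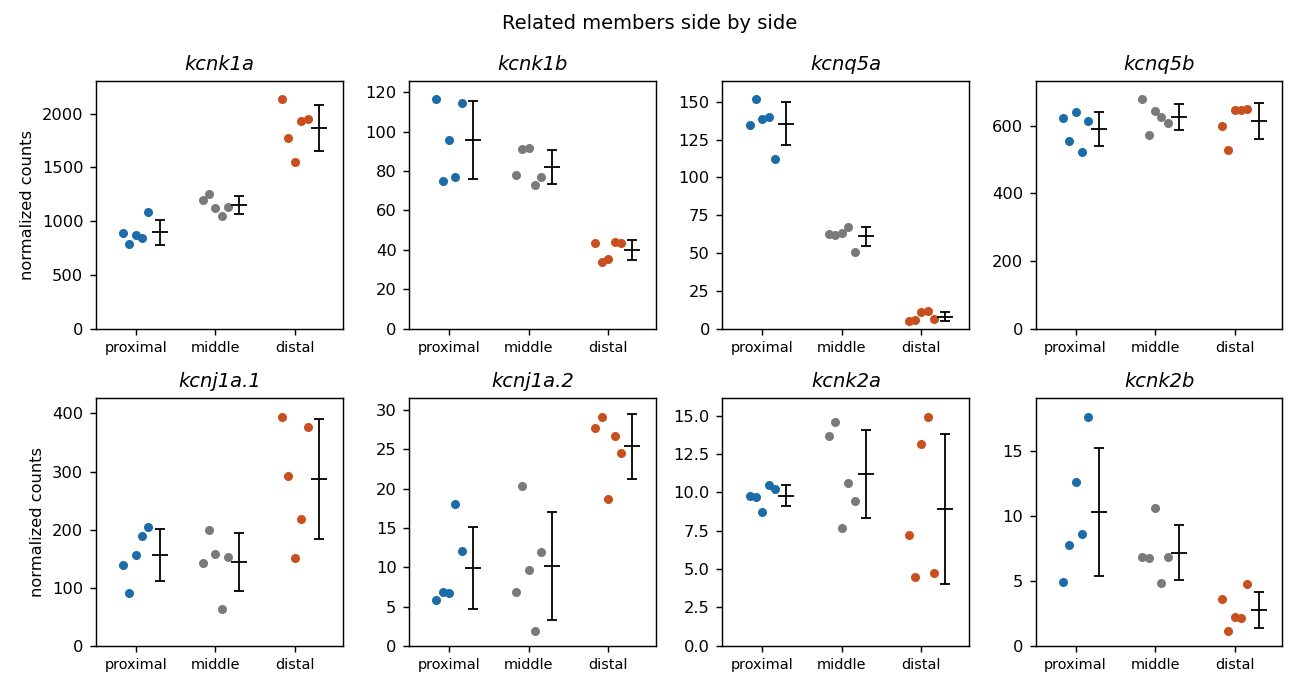
Normalized counts (y axis, from 0) of related genes in the proximal, middle and distal fin; each point is 1 of 5 libraries and the bar gives mean ± SD. *kcnk1a* rises while *kcnk1b* falls, *kcnq5a* falls while *kcnq5b* stays between 523 and 678 in all 15 libraries, and both *kcnj1a* genes are higher distally.

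Summed over the 79 channel genes with values in every library, normalized counts were 4542 ± 317 proximally, 4701 ± 146 in the middle and 5363 ± 199 distally. The distal sums, 5174 to 5654, lay above all others although more genes fell than rose. *kcnk1a* alone held 19.7% of the sum proximally, 24.5% in the middle and 34.8% distally. The two-pore class went from 1718 ± 166 to 2689.7 ± 168, while its 13 genes other than *kcnk1a* summed to 824 ± 109 proximally and 824 ± 100.3 distally. The inward rectifiers went from 741 ± 59.5 to 1123 ± 105. Sums of the ether-a-go-go family went the other way, from 329 ± 44.0 through 292 ± 23.4 to 122 ± 15.5, and those of the calcium- and sodium-activated channels from 343 ± 79.4 through 269 ± 23.8 to 106 ± 15.4. Sums add genes of unequal length and were not tested.

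Potassium is also moved by transporters and by the sodium pump, which builds the gradient that the channels use. Of 31 such genes measured between the ends 3 rose and 15 fell, with a median log2 fold change of −0.68. The pump alpha subunit gene *atp1a3b* fell from 3586 ± 182 to 2158 ± 209, and both genes listed as *slc12a2*, which encode sodium-potassium-chloride cotransporters, fell. The pump beta subunit gene *atp1b3a* rose from 543 ± 81.7 to 1457 ± 169. *slc12a7a*, a potassium-chloride cotransporter gene tied to fin overgrowth, was not called, at 1129, 1029 and 1241.

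Calcineurin, a phosphatase activated by calcium, is linked to the same trait in zebrafish: its inhibition lengthens regenerating fins. Of 16 genes of its subunits, regulators and targets 3 rose and 4 fell. The subunit genes *ppp3ca*, from 43.3 ± 10.4 to 11.9 ± 3.53, *ppp3cca* and *ppp3r1b* fell, and the regulator gene *rcan3* rose from 199 ± 32.04 to 352 ± 13.2. *rcan2*, at 338, 337 and 399.6, was not called. In a list of fin size genes outside the channels 2 of 9 rose and 4 fell, with a median log2 fold change of 0.14. The fallers were the matrix genes *hapln1a*, *hapln1b*, *vcana* and *vcanb*, which are related pairs and do not stand for the whole list.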

How the data were processed

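Total RNA of 15 libraries, 5 per fin position, was sequenced as 50 bp pairs after depletion of ribosomal RNA, per the labels' protocols. TopHat2 2.0.13, HTSeq, DESeq and GRCz10 are named, with neither role nor order, in the submitters' processing notes. No source used here gives the annotation, the strand setting or the treatment of reads with several matches, so reads of overlapping or antisense genes cannot be told apart. The signal columns of the deposited pairwise tables are, per the file headers and their values, the authors' means over 5 libraries of counts divided by size factors. The authors also deposited the fold (ratio of means), its log2 value, and a DESeq p-value with its Benjamini-Hochberg adjustment. A further table of genes changing in 1 direction gives means scaled over all 15 libraries, with log2 fold changes and p-values of both steps. A ranking score that the authors deposited with it was not used, and how they made the score is not stated.

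From the 15 printed digits of each mean the 5 whole counts were solved by lattice reduction (Python 3.11.15, numpy 2.4.6). A single solution was found for 23462 of the 23495 genes with a mean, 0 included, at every position. Among them were all channel genes with values there. Of the further table's means, 569, 569 and 568 for the 3 positions were kept for a check, and all lay within 1e-13 of those recomputed. Counts were divided by size factors over 15 libraries, which were fitted to the further table's remaining means. Over the 23495 genes, the mean normalized total was 18525732 proximally, 17881282 in the middle and 17689337 distally. These totals exceed the reads per library given above, which leave out the 33 genes without a single solution. Samples were grouped by labelled position and none was left out.

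Calls use the authors' adjusted p under 0.05. As alternatives the counts were fitted with limma 3.58.1 (voom, R 4.3.3, a minimum of 10 reads in 5 libraries). They were then fitted with no minimum, other scales, 2 positions alone, or 1 library left out. A run on simulated counts gave every gene the same spread beyond counting error, so nothing about the real fits is drawn from it. An adjusted p of 0.01 and a mean of at least 10 were also tried.

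Members, classes and lists were chosen with earlier results of these data known. Named were channel genes with a mean of at least 10 at 1 position and a call in any comparison, the fin size and skin pattern genes, and the 2 highest genes of each class. Among genes with a mean of at least 10, library values are given for the largest called fold between the ends by class and direction. Other genes are given by count or level, and those named beyond the rule were named after their values were seen. The values of 1 channel gene are not reported here, though the counts include it. RefSeq names and gene order (another build) were used for neighbours only.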

Additional observations from a re-analysis of the deposited data

Results flagged for a closer look

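For 5 of the 33 channel genes named by the rule, 1 library stood further from its group than Dixon's criterion for 5 values allows. That criterion is a gap of more than 0.71 of the group's range. For normal and independent values chance would mark about 1 group in 20, and each of the 33 genes gives 3 groups. A similar number would then be marked by chance. Some counts here are low and the genes share libraries, and the part of chance in these 5 was not tested. *kcnk5b* had 185 normalized counts in proximal library 1, the next lowest proximal library having 327. Without that library the log2 difference between the ends by limma went from 0.36 to 0.18, not called either way. *kcnj13* had 222 in distal library 1, against 158 in the next. *kcnh1a* had 24.5 in distal library 4, against 12.1 in the next, and still lay below every middle library. *kcng4a* had 23.3 in proximal library 2, against 12.6 in the next. *kcnk10a* had 0 in distal library 3, against 0.945 in the next lowest, a gap of 1 read. The 5 values came from 5 different libraries.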

How the results depend on the processing

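The counts of called channel genes stayed within 1.5 times the reported 34, 5 and 26 (distal against proximal, middle against proximal, distal against middle) under every alternative run except 1: at an adjusted p of 0.01 the middle and proximal count was 3. That threshold gave 25 and 20 in the other comparisons. Asking for a call at both steps as well brought the 30 genes with ordered means to 4. By limma the counts were 26, 5 and 26 on 40 genes tested, 38, 6 and 30 with no count minimum, and 24 to 26, 4 to 6 and 22 to 26 with each library left out in turn. All 24 genes called between the ends that entered the limma fit were called by it in the same direction. Of 69 results of named genes, 62 kept their direction and side of the threshold under each alternative run. Another 6 fell short under at least 1 (*kcnab1a*, *kcnc4*, *kcnd1*, *kcne4*, *kcnj1a.1*, *kcnk5b*). The last, *kcnk5b* between the ends, passed without 1 library, and none changed sign while called. For the causes, beyond there being fewer libraries, nothing was tested. Except for *kcnk5b*, the 69 leave out uncalled comparisons of genes called elsewhere. Of those left out, *kcng4a* between the ends and *kcnj2a* between middle and proximal fin passed by limma. *kcnk2b* and *kcnc2* had too few reads for the limma fit with a minimum and were checked only without one. No paired analysis was possible because the deposited columns carry no replicate number. Depth limits the 38 genes with means under 10, for which 3 reads in 1 library equal about 3 normalized counts.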

Other observations

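A further 24 gene IDs carry a *kcn* name only in the reference list of names and not in the deposited tables; they were not counted above. Of the 22 in the table of the ends 5 were called higher and 7 lower distally. *KCNA4* (ENSDARG00000078650), an A-type Kv gene by that name, stood at 788, 797, 717, 829 and 767 normalized counts in the proximal libraries, 691, 742, 963, 955 and 755 in the middle ones and 1161, 1442, 1428, 1067 and 1067 in the distal ones. It rose 1.58-fold between the ends (adjusted p = 1.40e-06 in the authors' deposited table), and the libraries of the ends did not overlap. *kcnk4a*, a further two-pore leak channel, rose from 51.9 ± 8.64 to 136 ± 13.9, and *KCNG2*, a Kv modifier by name, from 18.7 ± 6.24 to 48.5 ± 4.35. Another gene named *KCNT1* (ENSDARG00000104868) fell from 74.7 ± 13.9 to 20.7 ± 5.83, as *kcnt1* did. *kcnab2a*, a Kv beta subunit gene, fell from 48.0 ± 15.9 to 12.8 ± 1.24, opposite to *kcnab1a*. *KCNIP4* was higher than proximally in both other regions, with 10.13 ± 4.23 proximally, 26.3 ± 5.2 in the middle and 22.6 ± 3.37 distally. *KCNJ10* fell from 6.74 ± 3.73 to 1.35 ± 1.45. These genes were picked after their values were seen.

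The other marker lists gave these counts between the ends. Xanthophore markers gave 7 higher and 0 lower of 8, iridophore markers 2 and 3 of 9, and endothelial markers 5 and 5 of 12. Osteoblast markers gave 6 and 1 of 11, fin ray fibroblast markers 11 and 3 of 14, and epidermal markers 6 and 4 of 12. Mucous cell markers gave 0 and 5 of 5, neuromast markers 0 and 4 of 9, and skeletal muscle markers 0 and 2 of 9.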
